A study of Mus musculus with 12 samples.

Results

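The cytosolic ribosomal protein genes were followed in Tet2 KO mouse ESCs that stably carried a PiggyBac construct for WT TET2 or for a catalytic mutant of TET2 (H1304Y and D1306A). Genes were taken by symbol, as Rpl or Rps followed by a number and at most one letter a or x, with Rplp0, Rplp1, Rplp2 and Rpsa added and pseudogenes left out. This gave 76 of the 26061 genes in the deposited table, 45 of the large and 31 of the small subunit. Rpl41 was not analysed here, and Fau, which encodes a ribosomal protein fused to a ubiquitin-like protein, carries another symbol and was kept apart.

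All cells had been infected with a lentiviral shRNA against Setdb1, selected with puromycin and grown without feeders. They were kept in 2i medium (naïve ESCs) or in serum with LIF (primed ESCs). The study uses primed for serum culture. Poly(A) RNA was sequenced from 3 libraries for each of the 4 combinations of rescue construct and medium, 12 in all. No library with a control shRNA was analysed here, so each value is a level after SETDB1 depletion and no value measures a response to it. The labels number the replicates but do not say that they came from separate cultures or clones, so p-values measure only the spread between these libraries.

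A ribosome is built from ribosomal RNAs and a set of small, basic proteins, nearly all present once per particle. The small subunit reads the mRNA, the large subunit joins the amino acids, and the stalk of the large subunit recruits the elongation factors. Ribosomal protein mRNAs are among the most abundant in a proliferating cell, and they typically begin with a run of pyrimidines, the TOP motif, through which mTOR signalling sets their translation. Their proteins meet ribosomal RNA in the nucleolus, where RNA polymerase I and a large group of assembly factors act.

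The gene starts of some of the genes described here are shown first. The run of pyrimidines was more frequent at these genes than at all genes, and their choice by symbol did not use it. The starts kept from the RefSeq table of GRCm38.p6 covered 55 of the 76 genes. A run of at least 8 bases that are all C or T, touching the 10 bases on either side of the annotated start, was searched for. It was found in 27 of the 55 (49.1%), against 15.8% of the 27025 genes that the kept starts covered. These 27025 genes were not limited to those expressed in these cells. Capitals mark the longest such run of any length in each sequence, which reads 40 bases before and 20 bases from the start.
Rps25 (chr9:44407674-44407733, plus strand): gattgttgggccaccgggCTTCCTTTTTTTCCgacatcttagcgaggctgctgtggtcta
Rpl13a (chr7:45128726-45128785, minus strand): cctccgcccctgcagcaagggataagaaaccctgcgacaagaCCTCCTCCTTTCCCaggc
Rps12 (chr10:23787190-23787249, minus strand): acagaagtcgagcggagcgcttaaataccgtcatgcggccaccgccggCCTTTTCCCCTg
Rps27 (chr3:90213629-90213688, minus strand): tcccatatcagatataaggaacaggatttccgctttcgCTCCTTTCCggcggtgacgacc
Rpl39 (chrX:37085203-37085262, minus strand): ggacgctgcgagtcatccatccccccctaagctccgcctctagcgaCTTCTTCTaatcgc
Rpl12 (chr2:32961672-32961731, plus strand): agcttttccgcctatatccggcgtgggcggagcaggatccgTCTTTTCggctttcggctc
Rps28 (chr17:33824543-33824602, minus strand): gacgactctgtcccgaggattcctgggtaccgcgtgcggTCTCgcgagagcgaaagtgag
Rpl9 (chr5:65391412-65391471, minus strand): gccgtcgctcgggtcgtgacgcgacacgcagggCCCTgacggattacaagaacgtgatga

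A run of at least 8 touches the 10 bases on either side of the annotated start in the first 5 genes and not in the last 3. In Rps27 it spans the start, in Rps25 it ends before it, and in Rpl13a, Rps12 and Rpl39 it begins after it. An annotated start can lie some bases away from the one used in these cells. The 300 bases from 250 before to 50 after the start were searched on both strands. CCGGAAG, a core bound by ETS factors, was found in 40% of the 55 genes and 9.93% of the 27025 genes. CACGTG, the E-box that MYC can bind, was found in 10.9% and 8.09%, and TATAAA in 10.9% and 15.7%. These are matches of letters and do not show that a factor was bound.

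The cells had the markers of ESCs. The summed level of 6 ESC markers was 2930 to 3779 CPM (counts of a gene scaled to a common total of gene reads) in the 12 libraries. The fibroblast markers Col1a2, Col3a1 and Dcn had 0 reads in every library, and the fibroblast list summed to 3.47 to 8.59 CPM. The trophoblast list summed to 3.83 to 51.4 and the primitive endoderm list to 27.5 to 83.6. Several markers moved with the medium. Of 3 trophoblast markers tested, all (Krt8, Krt18 and Eomes) had lower values in naïve ESCs of both lines (limma, adjusted p between 3.19e-06 and 0.000604), as were 2 of 5 primitive endoderm markers (Col4a1 and Dab2). Of 2 fibroblast markers tested, Thy1 was higher in naïve ESCs of both lines and Lum was lower with mutant TET2. Of the 6 ESC markers, Sall4, Lin28a and Utf1 were lower in naïve ESCs of both lines, and Nanog was higher with WT TET2. Of 10 genes listed as high in serum culture, 8 were lower in naïve ESCs in each line, with Dnmt3b and Dnmt3l at 116 and 11.4 CPM in naïve and 543 and 498 in primed ESCs with WT TET2, and Lefty2 went the other way in both lines and Lefty1 with WT TET2. Of 9 genes listed as high in 2i, 3 were higher and 2 lower (Zfp42 and Nr0b1) with WT TET2, and 2 were higher and the same 2 lower with mutant TET2. Tet2 averaged 13.27 on the log2 scale with WT and 11.12 with mutant TET2 in naïve ESCs, and 14.83 and 12.99 in primed ESCs. These are RNA values, and the paper reports similar amounts of WT and mutant TET2 protein by Western blot. Setdb1, the gene targeted by the shRNA, averaged 7.82 with WT and 7.69 with mutant TET2 in naïve ESCs, and 8.27 and 8.11 in primed ESCs. The part of these markers and of the Tet2 and Setdb1 levels in the values below was not tested.

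Ribosomal protein genes took 2.72% to 6.80% of the gene reads of a library, of 8066662 to 21335933 reads per library. In naïve ESCs the shares were 3.93%, 5.50% and 3.996% with WT TET2 and 5.75%, 6.80% and 6.10% with the mutant. The primed shares were 2.72%, 3.18% and 2.85% with WT TET2 and 4.77%, 3.92% and 3.37% with mutant TET2. Each naïve library was above each primed library of the same line, and each mutant library was above each WT library in the same medium. Setdb1 was lowest for its group in naïve WT replicate 2 (7.51), naïve mutant replicate 2 (7.46) and primed mutant replicate 1 (7.52). These libraries had the highest shares of their groups. In primed WT ESCs Setdb1 was lowest in replicate 1 (8.19), which had the lowest share. Setdb1 had only 114 to 585 reads per library, and a link between its level and the shares was not tested. The ratio of large to small subunit reads stayed between 1.26 and 1.56. In bulk RNA, a change in the level per cell and a change in the mix of cells cannot be told apart.

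**Figure D1:**
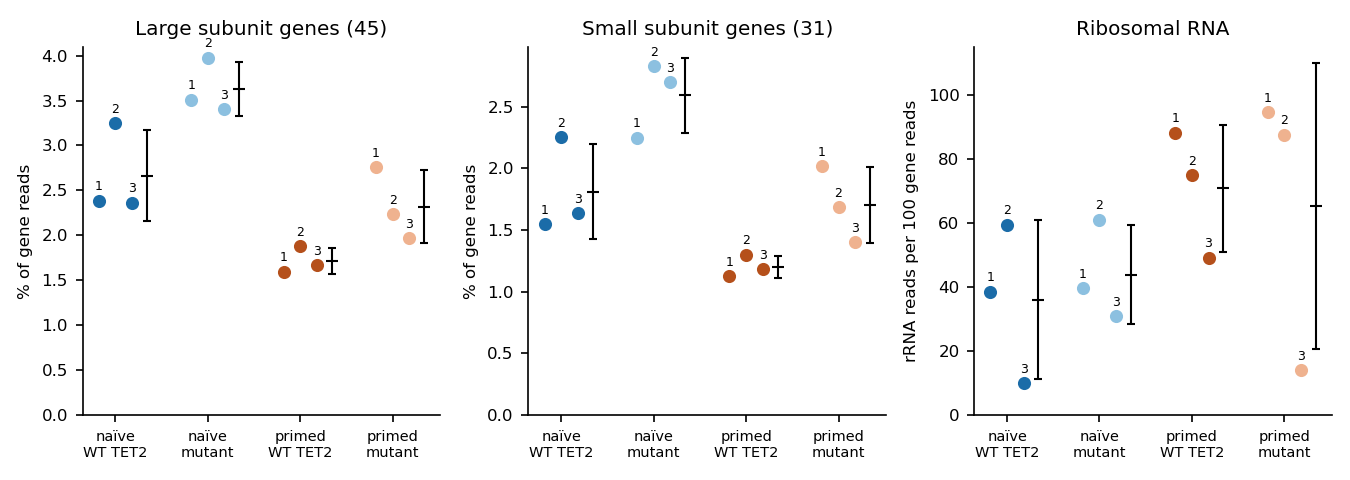
Share of gene reads from large (left) and small (middle) subunit genes and reads of the ribosomal RNA classes per 100 gene reads (right) in each library, with the replicate number at each point and the mean ± SD (n = 3) of each group as a bar. The primed WT libraries are the lowest in both subunits and the naïve mutant libraries are the highest in the large subunit, while in the small subunit naïve WT replicate 2 (2.25219%) lies just above naïve mutant replicate 1 (2.2473%), and ribosomal RNA reads differ widely within groups, from 9.92 to 94.4.

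Ribosomal RNA left over from poly(A) selection was counted in the separate table of repeats. It came to 38.5, 59.4 and 9.92 reads per 100 gene reads with WT TET2 and 39.5, 61.0 and 30.8 with mutant TET2 in naïve ESCs, and to 88.1, 74.9 and 49.0 and 94.4, 87.4 and 13.99 in primed ESCs. It was thus lower in naïve replicate 3 of the WT line and in primed replicate 3 of the mutant line than in the other libraries, and its part in the levels of the ribosomal protein genes was not tested.

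The first comparison asked how the genes differed between the media. All 76 genes had a higher mean in naïve than in primed ESCs, in both lines. In the WT rescue line 60 of 76 rose (limma, Benjamini-Hochberg adjusted p under 0.05) and none fell. Of the 14185 genes tested, 18.6% rose and 17.3% fell. In the mutant line 57 of 76 rose and none fell, where 18.3% of all genes rose and 16.9% fell. The median difference was 0.66 on the log2 scale with WT TET2 (1.58-fold, range 0.31 to 1.06) and 0.65 with mutant TET2 (1.57-fold, range 0.29 to 1.15), where the median over all genes was 0.01 and -0.01. In 64 and 59 genes every naïve library lay above every primed library, against 25.5% and 22.3% of all genes.

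Both subunits rose. With WT TET2 35 of 45 large and 25 of 31 small subunit genes passed the test, with medians of 0.71 and 0.63, and with mutant TET2 35 and 22 passed, with medians of 0.66 and 0.65. In all, 52 genes passed in both lines, 8 in the WT line alone, 5 in the mutant line alone and 11 in neither. A gene that passed in one line alone is not shown to differ between the lines, and that difference was tested separately as described further on.

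Rpl22 (chromosome 4, 151699851 to 151708180 in mm9), an RNA-binding protein that ribosomes can do without, had the largest rise with WT TET2. Its values were 13.31, 13.76 and 13.32 in naïve and 12.24, 12.68 and 12.29 in primed ESCs, without overlap, a rise of 1.06 on the log2 scale (SE 0.20, limma, adjusted p = 0.000581). With mutant TET2 they were 13.95, 14.03 and 13.45 against 13.08, 12.75 and 12.74, again without overlap (difference 0.95, limma, adjusted p = 0.0014). Its close paralog Rpl22l1, which was not among the 76 genes, also rose, by 1.01 and 0.91 (limma, adjusted p = 0.000668 and 0.0017). Of 8 such paralogs tested, 2 rose and none fell in each line, with medians of 0.22 and 0.42 and 3 of the 8 below 0.

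Rpl39, an X-linked gene whose short protein lines the exit tunnel, had the largest rise with mutant TET2. It was at 12.96, 12.77 and 12.24 in naïve and 11.76, 11.31 and 11.46 in primed ESCs, a difference of 1.15 (SE 0.23, limma, adjusted p = 0.00132). With WT TET2 it was at 11.69, 12.44 and 11.76 against 10.74, 11.36 and 10.82, a difference of 0.98 (limma, adjusted p = 0.00368). The groups did not overlap in either line. Rpl39l, its paralog and the other of the 2 that passed, rose by 0.88 and 1.88 (limma, adjusted p = 0.00417 and 6.44e-06).

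Other genes with large rises came from both subunits. Rpl17 and Rpl32 rose by 1.01 and 0.93 with WT TET2, and Rpl26, whose protein sits by the exit tunnel, rose by 0.92 and 0.99 in the WT and mutant lines. Rpl12, at the base of the stalk, rose by 0.92 in each line, and Rps24 by 1.01 and 0.91. Rps12 rose by 0.92 and 0.83, and Rps27 and Rps29, small zinc-binding proteins, by 0.63 and 0.97 and by 0.70 and 0.99. In Rps27 the WT libraries overlapped between the media, since primed replicate 2, at 8.86, lay above naïve replicate 1, at 8.76.

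The genes at the other end had the same direction but did not pass the test. Rps2, at the mRNA entry, had 12.89, 13.44 and 12.69 in naïve and 12.72, 12.69 and 12.68 in primed ESCs with WT TET2, a difference of 0.31 (limma, adjusted p = 0.26). Rpl8 and Rps9 differed by 0.33 and 0.35 with WT TET2 (limma, adjusted p = 0.134 and 0.204). In these 2 genes the naïve and primed WT libraries did not overlap, but the gap was small against the pooled spread. With mutant TET2 the smallest differences were those of Rpl10, Rplp0 and Rps7, at 0.29, 0.30 and 0.31 (limma, adjusted p = 0.224, 0.33 and 0.235).

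**Figure D2:**
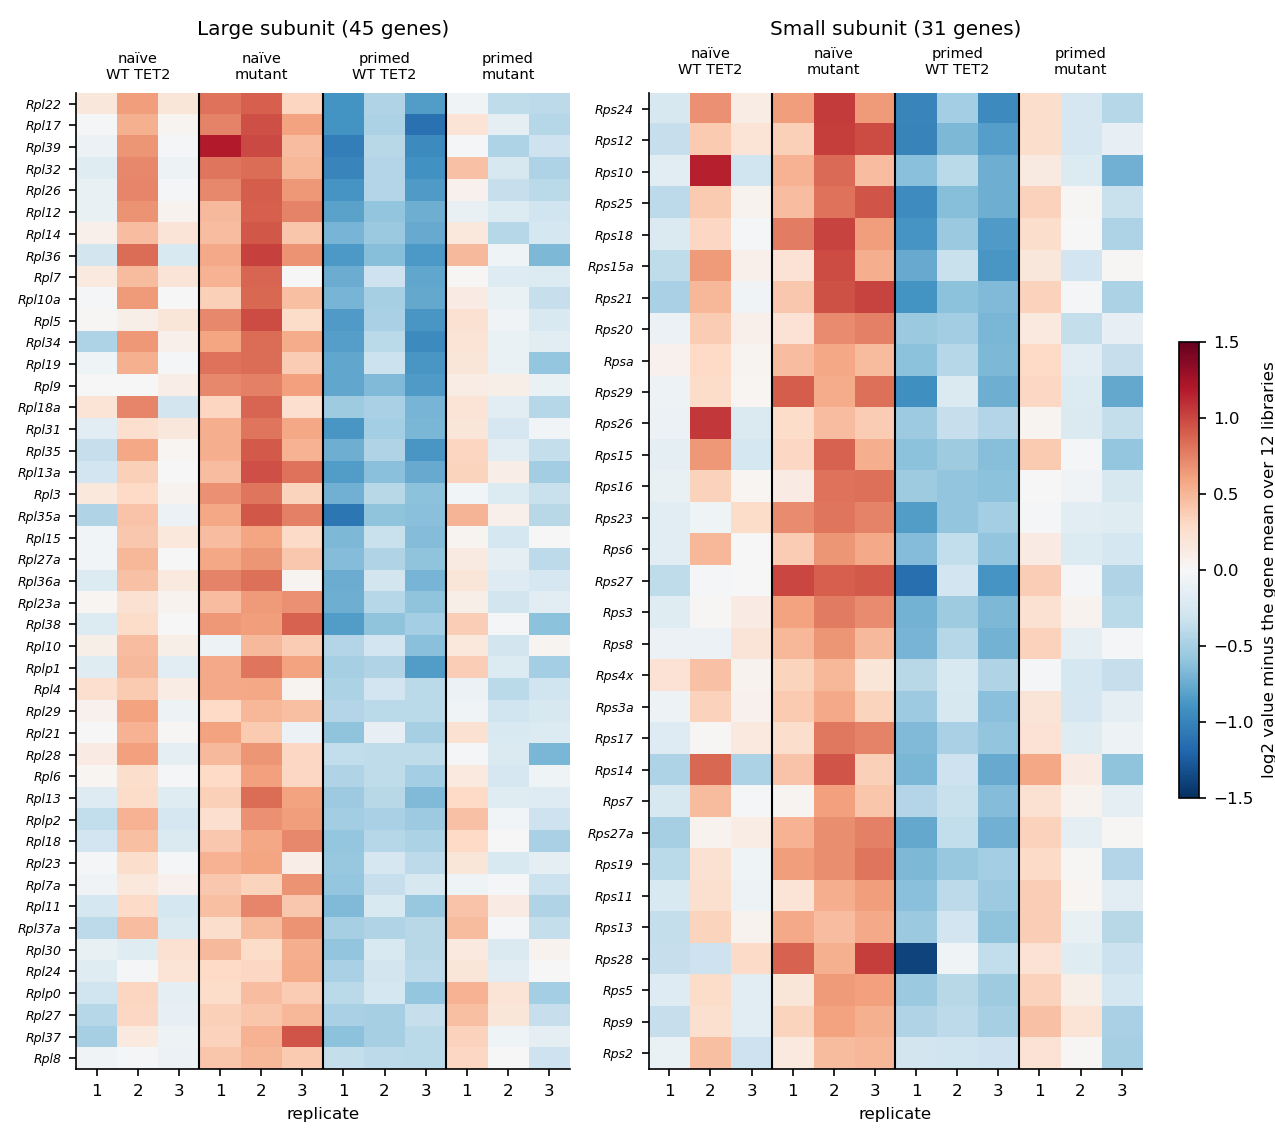
Deposited log2-scale value of each of the 76 genes in each library, minus the mean of that gene over the 12 libraries, with genes ordered by their naïve minus primed difference with WT TET2. Primed WT libraries are lowest for most genes and naïve mutant libraries highest, and naïve WT replicate 2 stands above the other naïve WT libraries.

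Of the genes of the stalk proteins, 1 of 3 passed the test in each line. Rplp1 rose by 0.64 and 0.78 in the WT and mutant lines (limma, adjusted p = 0.0352 and 0.0134), while Rplp0, which anchors the stalk, differed by 0.38 and 0.30 and Rplp2 by 0.49 in each line, and neither passed the test. Of the pair that carries the 5S ribosomal RNA into the ribosome and that can hold MDM2 back from p53, Rpl5 rose by 0.83 and 0.68 and Rpl11 differed by 0.41 and 0.49 without passing. Rpl5 was at 12.79, 12.87 and 12.96 in naïve and 11.93, 12.29 and 11.90 in primed ESCs with WT TET2, and Rpl11 at 10.89, 11.44 and 10.88 against 10.48, 10.92 and 10.58. The Rpl11 groups overlapped and the Rpl5 groups did not.

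Of 14 genes whose proteins have been given roles outside the ribosome, 12 rose in each line and Rpl11 and Rps14 did not pass. Rps6, the substrate of S6 kinase, rose by 0.65 in each line, and Rps3, which has also been linked to DNA repair, by 0.63 and 0.74. Rps27a, made as a fusion with ubiquitin, rose by 0.51 and 0.59, and Rps19, often mutated in Diamond-Blackfan anaemia, by 0.51 and 0.75. Rps25 rose by 0.79 and 0.73, Rpl38 by 0.67 and 0.81, Rpl10a by 0.85 and 0.66, Rpl13a by 0.77 and 0.78 and Rpsa by 0.71 and 0.57. Rps14 had the widest spread within groups, at 13.03, 14.34 and 13.01 in naïve WT libraries, and differed by 0.56 and 0.54.

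Of the 4 X-linked genes, all rose with WT TET2 and 3 with mutant TET2. Rps4x rose by 0.60 and 0.55 and Rpl36a by 0.71 and 0.62. Rpl10, a late-joining protein of the large subunit, rose by 0.66 with WT TET2 (limma, adjusted p = 0.00977). With mutant TET2 it was at 11.38, 11.95 and 11.84 in naïve and 11.61, 11.18 and 11.50 in primed ESCs, which overlap.

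Genes that serve the ribosome in other ways were taken from lists, whose counts stand against 18.6% of all genes tested that rose and 17.3% that fell with WT TET2, and 18.3% and 16.9% with mutant TET2. The counts of several lists lie near these shares. Of 58 ribosome biogenesis factors, 2 rose and 12 fell in naïve against primed ESCs with WT TET2, and 1 rose and 20 fell with mutant TET2 (limma, adjusted p under 0.05), with medians of -0.12 and -0.33. Bysl and Eif6, which act in small and large subunit assembly, fell by 0.83 and 1.03 with WT TET2, and Nop58 and Imp4, of the small nucleolar RNPs, fell by 0.97 and 1.12 with mutant TET2. Utp14a rose in both lines, by 0.58 and 0.42. Of 14 genes of RNA polymerase I and its factors, 1 rose and 4 fell with WT TET2 and none rose and 6 fell with mutant TET2. Polr1b fell by 0.69 and 0.87, Ubtf by 0.50 and 0.61 and Taf1c by 1.17 and 1.13, while Taf1d rose by 0.62 with WT TET2.

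Of 14 genes of the MYC and mTOR pathways, none rose and 5 fell in each line. Myc, a transcription factor that raises ribosomal gene expression in many cells, fell most, from 7.68 to 5.17 with WT TET2 and from 7.53 to 4.69 with mutant TET2 (limma, adjusted p = 4.01e-06 and 1.25e-06). Mycn fell by 0.48 and 0.71, Max by 0.88 and 1.11 and Eif4ebp2, an inhibitor of cap-dependent translation, by 0.73 and 0.42. Of 22 translation factors and other genes known for TOP mRNAs, 6 rose with WT TET2 and 5 with mutant TET2, and none fell. They included Eef1a1, the factor that brings tRNA to the ribosome, with 0.69 and 0.71, and Gnb2l1, which encodes the small subunit protein RACK1, with 0.62 and 0.63.

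The 76 mitochondrial ribosomal protein genes, which are nuclear genes for another ribosome, had medians of 0.11 and -0.01. Of them 8 rose and none fell with WT TET2, and 4 rose and 2 fell with mutant TET2. Mrpl32 had the largest rises, of 1.01 and 0.81. Fau rose by 0.65 with mutant TET2 (limma, adjusted p = 0.0268) and differed by 0.48 with WT TET2 without passing.

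**Figure D3:**
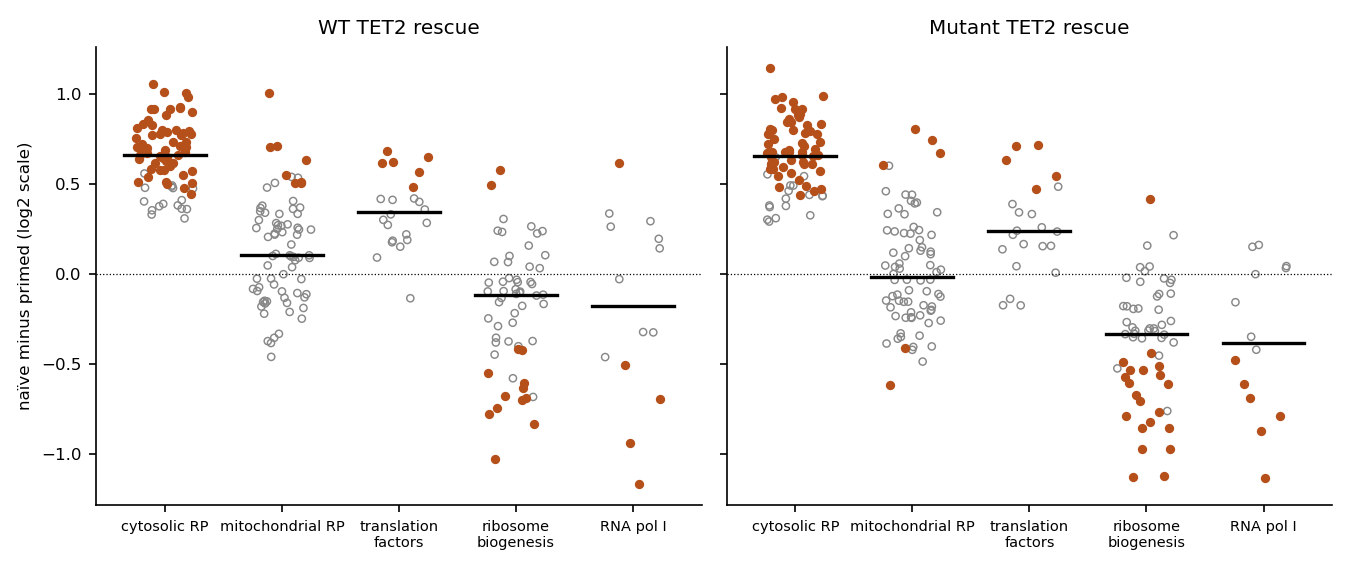
Naïve minus primed difference on the log2 scale of each gene in 5 groups of genes, with WT TET2 (left) and mutant TET2 (right). Filled points passed limma at an adjusted p under 0.05 and open points did not, and lines mark the medians. All cytosolic ribosomal protein (RP) genes lie above 0, with medians of 0.66 and 0.65, while biogenesis factors and RNA polymerase I genes that passed lie mostly below 0.

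Transcript length moved with this difference. The annotated transcripts of the 76 genes had a median length of 831 nt, against 2766.5 nt for 13080 other tested genes. The transcript with the longest coding sequence set the length of a gene, and for Rpl24 and Rps15a it lay far above this median. Among other genes at least as highly expressed as the lowest of the 76, the 224 with transcripts of up to 750 nt had a median of 0.49 with WT TET2 and 0.45 with mutant TET2, and 90 and 92 of them rose. Those over 4000 nt had medians of -0.04 and -0.12. Among the ribosomal protein genes themselves, the 30 of up to 750 nt had medians of 0.69 and 0.75 and the 46 longer ones had medians of 0.62 and 0.61.

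When the trend with length among those highly expressed other genes was removed from each library, 39 ribosomal protein genes rose with WT TET2 and 43 with mutant TET2, and none fell. The medians were then 0.39 and 0.43, with 75 and 76 of 76 genes above 0. With the trend of all other genes the counts were 53 and 54 and the medians 0.46 and 0.52. The counts also depended on single libraries. With WT TET2 they were 27, 32 and 35 without naïve WT replicate 2, primed WT replicate 1 or primed WT replicate 3. With mutant TET2 they were 30, 32 and 36 without naïve mutant replicate 2, primed mutant replicate 2 or primed mutant replicate 3. The medians without single libraries were 0.53 to 0.76 and 0.55 to 0.78.

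**Figure D4:**
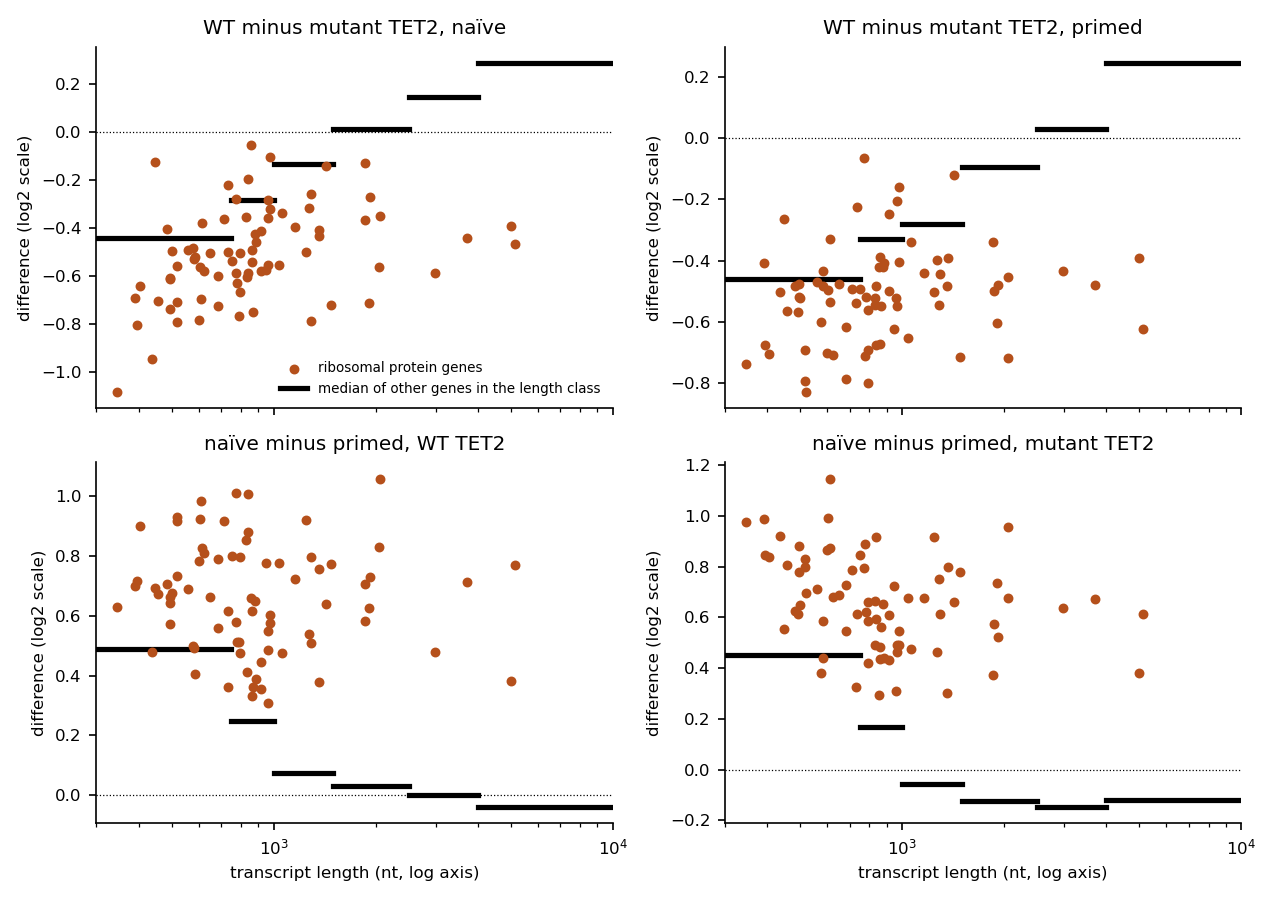
Difference of each ribosomal protein gene (points) and median difference of other genes at least as highly expressed as the lowest of the 76 (black lines, by length class), against transcript length on a log axis, for WT minus mutant TET2 in naïve and primed ESCs (top) and naïve minus primed ESCs in each line (bottom). Short other genes have medians of -0.44 and -0.46 between the lines and 0.49 and 0.45 between the media, and the medians move towards or past 0 in longer genes.

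The second comparison was that of the rescue lines within a medium. It used the same 12 libraries as the first, so the 2 are not independent. Each construct was carried by its own stable line, and the labels name no separate clones. An effect of the mutation and any other difference between the lines therefore cannot be told apart. All 76 genes had a lower mean with WT than with mutant TET2, in naïve and in primed ESCs, with median differences of -0.51 and -0.50 where the median over all genes was 0.00 and 0.01. Hardly any single gene passed the test. In naïve ESCs 0 of 76 were called by limma, with 52 at an unadjusted p under 0.05, and limma-voom on the recovered reads also called 0, with 53 at an unadjusted p under 0.05. In primed ESCs 1 of 76 was called, Rpl9, with 58 at an unadjusted p under 0.05. Of all genes tested 0.00705% and 0.0493% were called lower with WT TET2, and 6.96% and 8.11% had an unadjusted p under 0.05 and a lower mean. Every WT library lay below every mutant library in 33 of 76 genes in naïve ESCs, against 8.01% of all genes, and in 50 in primed ESCs, against 10.9%.

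Rpl9 (chromosome 5, 65779603 to 65782682 in mm9), a protein of the large subunit, was at 9.55, 9.66 and 9.47 with WT TET2 and 10.44, 10.41 and 10.22 with mutant TET2 in primed ESCs. The WT libraries lay below the mutant libraries without overlap, and the log2 difference was -0.80 (SE 0.13, limma, adjusted p = 0.0158). Over the alternatives its adjusted p was 0.0053 to 0.258. In naïve ESCs it was at 10.32, 10.33 and 10.42 against 11.05, 11.08 and 10.93, which do not overlap either, a difference of -0.66 (limma, adjusted p = 0.102). Rpl9 had a small spread within groups, with an SD of 0.09, where the median of the 76 genes was 0.27. The call was lost without primed WT replicates 1 or 3 (limma, adjusted p = 0.115 and 0.133) or primed mutant replicates 1 or 2 (adjusted p = 0.0762 and 0.0648). It was also lost with the length trend of all other genes or of highly expressed genes removed, where the differences were -0.54 and -0.43 (adjusted p = 0.154 and 0.258). Rpl9 has processed pseudogenes in the table, and when their reads were added the adjusted p of limma-voom was 0.0481.

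Rps27 (chromosome 3, 90016593 to 90017573 in mm9) had the largest difference in naïve ESCs. It was at 8.76, 9.12 and 9.14 with WT TET2 and 10.15, 10.05 and 10.07 with mutant TET2, without overlap, and differed by -1.08 (SE 0.22, limma, adjusted p = 0.109). Same-numbered naïve libraries of the lines deviated alike, and with the number as a block Rps27 was the 1 gene of the 76 that passed (limma, adjusted p = 0.035). Over the alternatives its adjusted p was 0.035 to 0.405. In primed ESCs the values were 8.01, 8.86 and 8.26 against 9.51, 9.13 and 8.70, which overlap. Rps27 also has the shortest annotated transcript of the 76, with 345 nt.

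Other genes with large differences lay in both subunits. In naïve ESCs Rps28 was at 9.01, 9.06 and 9.65 with WT TET2 and 10.26, 9.90 and 10.40 with mutant TET2, differing by -0.94 (limma, adjusted p = 0.262). Rps21 differed by -0.80, with overlapping groups. In primed ESCs Rpl35a and Rps12 differed by -0.83 and -0.79 without overlap (limma, adjusted p = 0.172 and 0.159). None of these passed the test.

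The smallest differences in naïve ESCs were those of Rpl10, Rps4x and Rps26, at -0.06, -0.10 and -0.13. Rpl10 was at 11.54, 11.92 and 11.54 with WT TET2 and 11.38, 11.95 and 11.84 with mutant TET2, which overlap. Rps26, at the mRNA exit, was at 12.32, 13.47 and 12.20 against 12.69, 12.88 and 12.80, so that a single WT library lay above all others. In primed ESCs Rpl28, Rpl4 and Rps4x differed by -0.07, -0.12 and -0.16. Rpl28 was at 10.53, 10.51 and 10.51 with WT TET2 and 10.86, 10.67 and 10.21 with mutant TET2, where the mutant libraries lay on both sides of the WT libraries. The direction of Rpl10 and Rps26 in naïve and Rpl28 in primed ESCs turned when single libraries were left out, and that of these genes and of Rps4x and Rpl4 turned with the length trend removed.

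**Figure D5:**
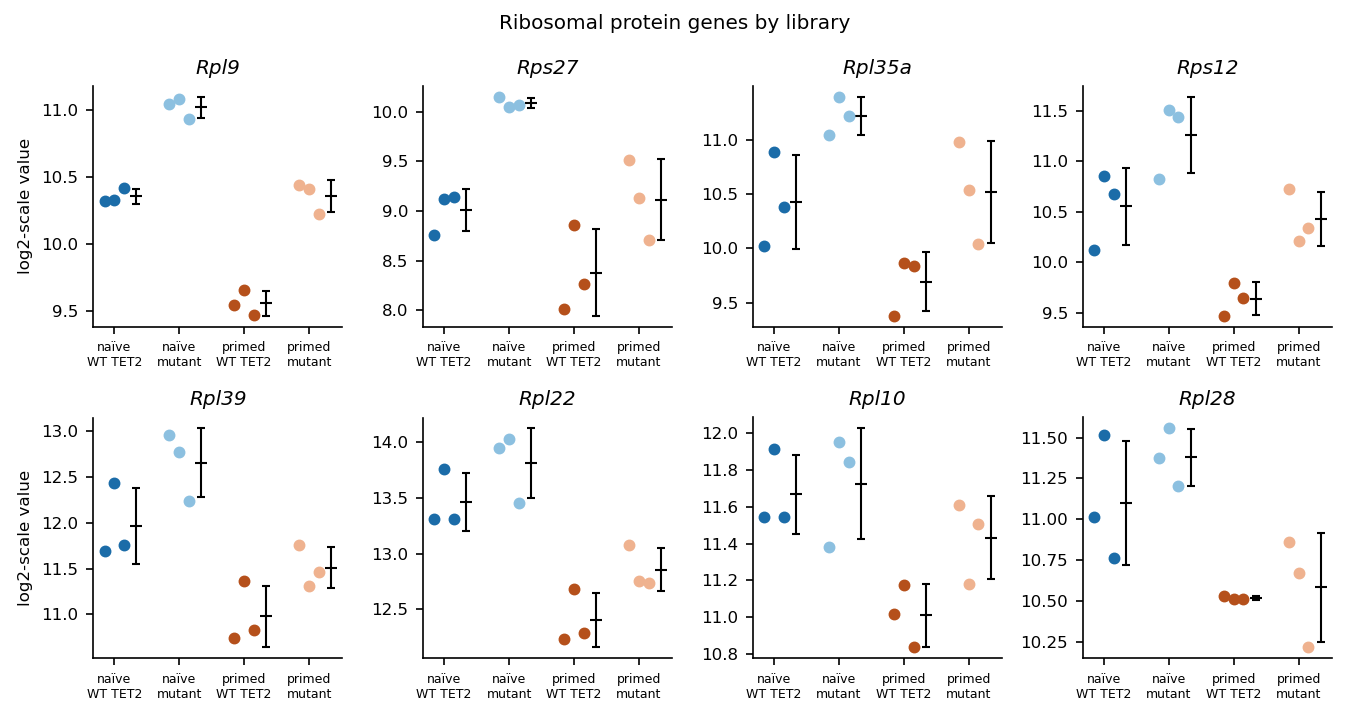
Deposited log2-scale value of 8 ribosomal protein genes in each library, with the mean ± SD (n = 3) of each group as a bar. Rpl9 has the tightest groups, with WT libraries below mutant libraries in both media, while the groups of Rpl10 in naïve ESCs and of Rpl28 in primed ESCs overlap.

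By role, the stalk genes Rplp0, Rplp1 and Rplp2 differed by -0.41, -0.61 and -0.55 in naïve and by -0.48, -0.47 and -0.55 in primed ESCs. Rpl5 and Rpl11 differed by -0.56 and -0.60 in naïve and by -0.72 and -0.52 in primed ESCs. The 14 genes with roles outside the ribosome had medians of -0.60 and -0.56, and the 4 X-linked genes -0.25 and -0.45. None of these genes was called.

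The lists of other genes were also tested between the lines. The 76 mitochondrial ribosomal protein genes had medians of -0.18 in naïve and -0.34 in primed ESCs, the 58 biogenesis factors 0.12 and -0.09, the 14 RNA polymerase I genes 0.05 and -0.21, the 22 translation factors -0.04 and -0.26 and the 14 MYC and mTOR genes 0.28 and 0.19. No gene of these lists was called by limma.

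Transcript length moved with the difference between the lines as well. Other genes were again taken if at least as highly expressed as the lowest of the 76. Those of up to 750 nt had medians of -0.44 in naïve and -0.46 in primed ESCs. Only 3.57% and 1.79% of them were higher with WT TET2. Those of 750 to 1000 nt had medians of -0.28 and -0.33, and those over 4000 nt had 0.28 and 0.24. The 30 ribosomal protein genes of up to 750 nt had medians of -0.59 and -0.53, and the 46 longer ones had -0.45 and -0.49. With the trend of all other genes removed the ribosomal protein medians were -0.30 and -0.27, and with that of highly expressed genes they were -0.21 and -0.16, with 68 and 63 of the 76 genes still lower with WT TET2 and none called.

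The difference between media of the WT minus mutant difference was tested as an interaction. None of the 76 genes was called by limma (0.0% of all genes tested), and 0 had an unadjusted p under 0.05, where 1.23% of all genes had one with a higher and 2.22% with a lower value in naïve ESCs. Limma-voom also gave 0 and 0. The median over the 76 genes was 0.00, from -0.44 for Rps28 to 0.37 for Rpl10, with standard errors of 0.19 to 0.46, so that differences of this size could not be resolved gene by gene. Rpl7 and Rps7 had 0.29 and 0.24, and Rps27 and Rps29 had -0.34 and -0.28 (limma, adjusted p at least 0.976 for each).

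The genes varied together. The mean value of the 76 genes within each library, taken as the deviation from the group mean, was highest in naïve WT replicate 2 (0.31) and primed mutant replicate 1 (0.30) and lowest in primed mutant replicate 3 (-0.24) and naïve WT replicate 1 (-0.23). Over the 12 libraries, the deviation of a gene correlated with that of the mean of the other 75 by a median Pearson r of 0.81, as a description of libraries that share depth and scaling. Rps24 followed the others most closely (0.98). In 5 genes r was under 0.5, and these were Rpl30 (0.01), Rps23, Rps28, Rpl24 and Rpl7a. The SD over the 12 libraries was largest in Rpl39 (0.71), Rps27 and Rpl36 (0.69 each) and smallest in Rpl24 (0.32), Rpl8 (0.33) and Rps4x (0.34). The median was 0.49, against 0.34 for all genes tested.

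Levels per length, as RPKM (reads scaled to the gene total and to the annotated transcript length), ranged from 59.7 to 3544 over the 76 genes, with a median of 470. Rpl32 (3544), Rplp1 (2691) and Rpl8 (2406) were highest and Rpl24 (59.7), Rps15a (71.5) and Rps19 (94.6) lowest. The longest coding sequence annotated for a gene set its length, and this gave 4999 nt for Rpl24 and 5130 nt for Rps15a, far above the median of 831 nt. Multi-mapping reads had been placed at random on one of their best positions, so a gene and its processed copies share reads and both levels are uncertain. Of the 76 genes 31 had pseudogene rows under their own symbol in the table, which held 18.8% to 21.7% as many reads as the 76 genes. Any copies under other symbols were neither counted nor added. Of 46 pseudogene rows tested, 27 rose in naïve ESCs in each line, and adding their reads to those of their genes gave 62 and 60 ribosomal protein genes called between the media with limma-voom. Libraries were not stranded, so reads of overlapping genes were not separated either.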

How the data were processed

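Poly(A) RNA of 12 libraries, 3 per group, was analysed, with groups and replicate numbers taken from the labels. According to the labels and methods, the authors trimmed reads with Trim Galore 0.3.3, aligned them to mm9 with TopHat2 2.0.9, counted reads per gene and per repeat class, and deposited variance-stabilised values from DESeq2, which are on a log2 scale and hold the authors' size factors. Gene and repeat tables were normalised separately. The transformation was inverted for depth, and 100% of values came out as whole reads within 0.01.

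The 14185 genes with a mean at least 1 above the lowest value were fitted with limma 3.58.1 in R 4.3.3, with 4 group means, a variance trend and Benjamini-Hochberg adjustment, and were called at an adjusted p under 0.05. All 76 ribosomal protein genes passed the filter. The variance-stabilising transformation flattens values near its lowest value, so differences understate changes of low genes. Positions and transcript lengths are from GENCODE vM1, which is on mm9. Counting error is smallest in the most read genes, and the 76 genes had 153 to 75424 reads per library. Reads are not independent molecules.

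Same-numbered naïve libraries of the lines deviated together (correlations over genes 0.586, 0.300 and 0.385), though the labels do not state a pairing. Those of primed libraries did not (0.161, -0.0652 and 0.189). Between the media the correlations were 0.220, 0.145 and -0.0162 with WT TET2 and -0.0467, -0.146 and -0.0791 with mutant TET2. The main fit used no pairing, and the replicate block was run as an alternative.

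Genes, lists and tests were chosen with earlier results of these data known. Named genes are those called, the 3 with the highest and lowest difference in each comparison (8 in the comparisons of media), those with set roles, and those extreme in level or spread. Myc, Bysl, Eif6 and other genes outside the 76 were named from the lists after their values were seen. Alternatives were other filters, centring, quantile normalization, no variance trend, a replicate block, limma-voom, added pseudogene reads, 6 libraries alone, a threshold of 0.01 and single libraries left out. Centring on other genes and removal of a length trend (lowess) were added after seeing the data. Python 3.11.15, pandas 2.3.3 and matplotlib 3.10.9 were used.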

Additional observations from a re-analysis of the deposited data

How the results depend on the processing

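The direction of the medians held under every alternative run, except that of the interaction, which lies near 0. Without single libraries the medians were -0.67 to -0.39 (naïve) and -0.63 to -0.35 (primed) between the lines, 0.53 to 0.76 (WT) and 0.55 to 0.78 (mutant) between the media, and -0.15 to 0.14 for the interaction. The counts of genes called were then 0 to 2, 0 to 3, 27 to 63, 30 to 67 and 0 to 0. The cause of these changes was not tested.

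Between the lines in naïve ESCs, 1 gene was called without the filter and with quantile normalization (Rpl9 in both) and 1 with the replicate block and with only the 6 libraries of the medium (Rps27 in both). In primed ESCs 4 were called with the block (Rpl9, Rps12, Rps25 and Rpl17), although same-numbered primed libraries did not deviate together. None was called there with only 6 libraries, at 0.01 or with either length trend removed (0 each), and the median moved to -0.27 and -0.16 with the length trends of all and of highly expressed genes. Between the media, the WT and mutant counts were 31 and 28 without the filter and 26 and 26 at 0.01, and 39 with WT TET2 with the length trend of highly expressed genes removed. The replicate block gave 56 and 58 and 0 for the interaction, and changed no other call by over 1.5 times.

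Of 3186 values of named genes under 24 alternatives, 22 reversed, none of them called. With single libraries left out Rpl10 was -0.23 to 0.0573 (with 0.00664, 0.00558 and 0.00282 among the reversed values) and Rps26 -0.53 to 0.108 (with 0.0447) in naïve ESCs, and Rpl28 was -0.25 to 0.0742 in primed ESCs. With the length trend of all other genes removed Rpl10, Rps26 and Rps4x were 0.17, 0.20 and 0.10 in naïve and Rpl28, Rpl4 and Rps4x were 0.20, 0.0285 and 0.0663 in primed ESCs. With that of highly expressed genes Rpl10, Rpl36a, Rps26 and Rps4x were 0.22, 0.0827, 0.39 and 0.13 in naïve and Rpl28, Rpl36a, Rpl4, Rplp1 and Rps4x were 0.31, 0.0128, 0.0911, 0.0159 and 0.16 in primed ESCs.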
